A study of Ovis aries with 32 samples.

Results

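Imprinted genes that act on fetal growth were followed in perirenal preadipocytes of near-term fetal sheep before and after adipogenic differentiation. A total of 10 genes were searched for by symbol, DLK1, PEG3, PEG10, MEST, PLAGL1, GRB10, CDKN1C, NNAT, SGCE and NDN. The table of transcripts named 8 of them, with 19 transcripts, among 21271 genes. PEG3 and NNAT were not among its gene names and were not analysed here, and 8509 transcripts carried no name. The values of all transcripts of a gene were summed, and only genes whose sum reached 10 in 4 or more of all 32 libraries were tested. That left 12737 genes, 7 of them from the set, and DLK1 was the named gene that did not pass.

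An imprinted gene is read mainly from the copy inherited from 1 parent, through methylation marks laid down in the germ line. Many such genes are expressed from the paternal copy and raise fetal or placental growth, whereas several maternally expressed genes restrain it. In fat, DLK1 is known as a marker of preadipocytes that holds back differentiation, and MEST is known to follow the enlargement of fat cells.

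The study compared cells of male and female fetuses, from control and from growth-restricted pregnancies, with total RNA sequenced in 4 libraries a group. MC and FC were male and female control preadipocytes, and MFGR and FFGR were male and female growth-restricted preadipocytes. MCD, FCD, MFGRD and FFGRD were the same 4 backgrounds after differentiation. Growth restriction was produced by keeping pregnant ewes in heat during early and mid gestation, and control ewes were kept at an ordinary temperature and pair-fed. All ewes were Columbia-Rambouillet crosses with singleton pregnancies, and none of the animals carried an engineered allele. The labels did not say whether libraries with different numbers came from different fetuses, so the p-values measure the spread between these libraries, which may be partly technical. The labelled cells were cultures from a fat depot and could hold other cells. In such bulk samples, fewer cells of a type and less RNA per cell cannot be told apart.

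Library sums of the normalized values lay between about 9520000 and 21200000, and approximate read totals recovered from the smallest values lay between about 7810000 and 21300000. All 9 tested adipocyte markers rose with differentiation, and their summed level was 88.3 to 2043 in preadipocytes and 415 to 185524 in differentiated libraries. Of 9 mesenchymal progenitor markers, 4 fell and 1 rose. Genes of the adrenal cortex, a tissue next to perirenal fat, were 4 of 5 tested up, with a summed level of 3.22 to 89.8 in preadipocytes and 19.8 to 2052 in differentiated libraries and with MC2R under 10 in every library. Of the 3 tested immune markers, 2 rose and 1 fell. Of the 4 tested endothelial markers, 1 fell, and so did DES of muscle and PAX8 of epithelium, whereas S100B of Schwann cells rose. Of all genes tested, 27.2% were called as risen or fallen, and 1 of 4 endothelial markers is close to that share. The part of all these cell type markers in the results on the imprinted genes was not tested. The libraries MCD 4, MFGR 1, MFGRD 1, FC 2, FFGR 2, FFGR 3 and FFGRD 3 stood apart from the other 25 in a tree of all libraries. In these 7 the values fell with the genomic span of the transcript, with a slope, the span slope, of -1.06 to -0.56 on the log2 scale for each 10-fold of span. It was -0.47 to 0.40 in the rest.

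DLK1, a membrane protein of the Notch ligand family that is widely used as a preadipocyte marker, was nearly absent in these cells. Its gene, ENSOARG00020018436, lies on chromosome 18 between 65994360 and 66131742 of Oar_rambouillet_v1.0, and 2 transcripts were listed. DLK1-202, which spans 8535 bases, was at 0 in all 32 libraries. DLK1-201, which spans 137383 bases, was above 0 in 7 libraries. The value was 1.36 in FC 1 and 1.52 in FFGR 4 among the preadipocytes. It was 1.79 in MFGRD 1, 0.833 in MFGRD 2, 1.54 in MFGRD 3, 2.34 in FFGRD 3 and 1.49 in FFGRD 4 after differentiation. Each of these values was worth about 1 or 2 reads, and together they came to about 10.9 reads over the 32 libraries. Libraries at 0 were found in every group, and MC, MFGR, MCD and FCD held no value above 0. A count of 0 allows up to 3 reads, which was 0.141 to 0.384 RPM, reads scaled to the read total, over the libraries, for counting error only. No fold and no test are given for DLK1, since both stages were at or under that limit. The neighbouring genes BEGAIN and RTL1 were also under the filter, and MEG3, the maternally expressed RNA of the same cluster, was not named in the table.

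The stage comparison asked which of these genes changed when preadipocytes became adipocytes. PEG10 rose, and no other member was called. A call needed an adjusted p below 0.05 and a fold above 1.5, with limma on log2(value + 1) and Benjamini-Hochberg adjustment over all 12737 genes. The call was 1 of 7 members, against 27.2% of all genes tested, so a single call among 7 was no more than the background.

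**Figure D1:**
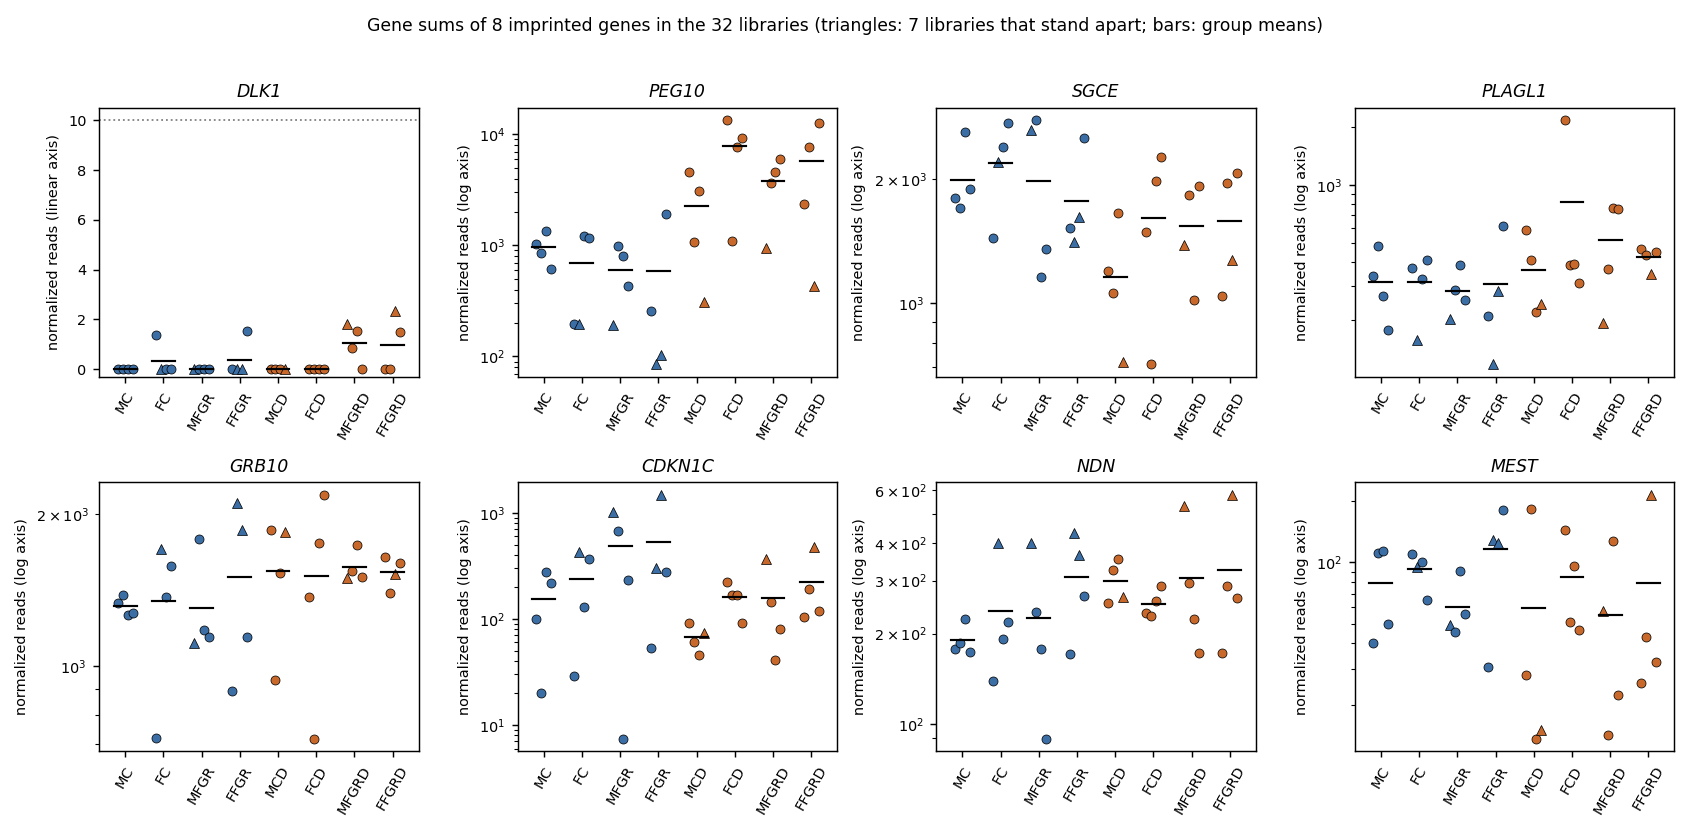
Gene sums of the 8 named imprinted genes, in normalized reads, in each of the 32 libraries by group (blue, preadipocytes; orange, differentiated; bars, means of 4 libraries; triangles, the 7 libraries that stood apart). All DLK1 values sit below 2.4 on a linear axis whose dotted line marks the filter of 10, and the other genes are on log axes, where PEG10 reaches 13449 in FCD 1.

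PEG10 is a gene domesticated from a retrotransposon, expressed from the paternal copy and needed for the placenta. It is ENSOARG00020020122, on chromosome 4 between 13879215 and 13887746, with 1 transcript. In MC 1 to 4 it was 1030, 860, 1343 and 619 normalized reads, and in MCD 1 to 4 it was 4535, 1084, 3115 and 311. In FC it was 197, 197, 1217 and 1170, and in FCD 13449, 1103, 7733 and 9263. The male control stages overlapped, with the fourth MCD library below all MC libraries, and the female control stages overlapped at the lowest FCD library only. In MFGR it was 193, 997, 798 and 428, and in MFGRD 954, 3666, 4580 and 6046. In FFGR it was 255, 85.0, 103 and 1935, and in FFGRD 2344, 7689, 431 and 12575. In MFGRD only the first library fell inside the MFGR range, and in FFGRD only the third fell inside the FFGR range. Both are among the libraries that stood apart.

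The mean PEG10 level was 714 ± 544 (SD, n = 16) in preadipocytes and 4930 ± 4205 (SD, n = 16) after differentiation. The change over all backgrounds was 2.62 on the log2 scale (SE 0.52, 95% interval 1.55 to 3.69, limma adjusted p = 0.000275). Libraries of the same background and number were higher after differentiation in 15 of 16 pairs. MC 2, FFGR 1 and FFGR 2 were closer to a differentiated library of another number, and 11 of the 15 pairs lay outside FFGR. The change was 2.60 without the 7 libraries that stood apart (limma adjusted p = 0.000119).

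Within single backgrounds the estimate for PEG10 was less certain. It was 0.67 in male controls (SE 1.04, limma adjusted p = 0.754), 3.55 in female controls (adjusted p = 0.0634) and 2.63 in growth-restricted males (adjusted p = 0.162), and none of these was called. The male control estimate was 1.42 without MCD 4, 0.13 without MCD 1, 1.42 without the 7 libraries that stood apart (limma adjusted p = 0.283) and 1.54 with the span slope as a covariate (adjusted p = 0.0703). In growth-restricted females it was 3.61 (limma adjusted p = 0.0251), which was a call. The shares of all genes called were 8.35% in MC, 2.52% in FC, 5.13% in MFGR and 10.3% in FFGR. With background and replicate number as a block, PEG10 was also called in female controls (limma adjusted p = 0.00778) and in growth-restricted males (limma adjusted p = 0.0236). The FC estimate was also called without FCD 2, FFGR 4 or FFGRD 3 (limma adjusted p = 0.0212, 0.0425 and 0.0405). The FFGR call was lost without FFGR 2, FFGR 3, FFGRD 2 or FFGRD 4 (limma adjusted p = 0.102, 0.0917, 0.0926 and 0.0994), and in a fit of those 8 libraries alone (adjusted p = 0.2).

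The backgrounds were compared directly for PEG10. The stage response of growth-restricted cells exceeded that of controls by 1.01 (SE 1.04, unadjusted p = 0.344, limma adjusted p = 0.988), with an interval of -1.14 to 3.15. It was 0.65 without the 7 libraries that stood apart and 0.36 with the span slope as a covariate. The response of males was below that of females by a log2 difference of -1.93 (SE 1.04, unadjusted p = 0.0754, limma adjusted p = 0.912), with an interval of -4.07 to 0.21, and the same alternatives gave -1.04 and -1.06. Neither difference passed, and no gene was called by limma in either comparison (0% and 0% of genes), with 132 and 116 genes at an unadjusted p below 0.05.

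SGCE, the epsilon sarcoglycan of the membrane complex that links the cytoskeleton to the matrix, lies 213 bases from PEG10 on the same chromosome, between 13811267 and 13879001. It is ENSOARG00020018567 and is paternally expressed as PEG10 is. Its level was 1794, 1697, 2597 and 1887 in MC, and 1193, 1060, 1653 and 718 in MCD. It was 1440, 2202, 2395 and 2731 in FC, and 1484, 710, 1983 and 2264 in FCD. The male control stages did not overlap, and the female control stages did. In MFGR it was 2636, 2782, 1157 and 1352, against 1387, 1834, 1015 and 1927 in MFGRD. In FFGR it was 1522, 1406, 1618 and 2521, against 1043, 1951, 1270 and 2064 in FFGRD. The growth-restricted stages overlapped in both sexes. In male controls the change was -0.83 (SE 0.36, limma adjusted p = 0.165), which was not called. How many of all genes had stages without overlap was not counted. The response of males minus that of females was -0.21 (SE 0.36, limma adjusted p = 0.914). The SGCE change with stage over all backgrounds was -0.46 (SE 0.18, limma adjusted p = 0.0472), which passed the p threshold and not the fold of 1.5. Without the 7 libraries that stood apart it was -0.38 (limma adjusted p = 0.16). In 3 of 16 pairs of the same number SGCE was higher after differentiation, and 2 of those lay outside FFGR.

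The neighbours therefore differed in the sign of their estimates. The log2 ratio of PEG10 to SGCE within a library was -4.03 to -0.38 in preadipocytes, with a median of -1.54. It was -1.56 to 3.18 after differentiation, with a median of 1.41. The ratio in 13 of the 16 differentiated libraries was above that of every preadipocyte library, and this is given as a description, because the pair was put together after both changes were seen. The next tested genes on either side, CASD1 beyond SGCE and PPP1R9A beyond PEG10, had stage changes of 0.17 and 0.19 (limma adjusted p = 0.644 and 0.862).

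**Figure D2:**
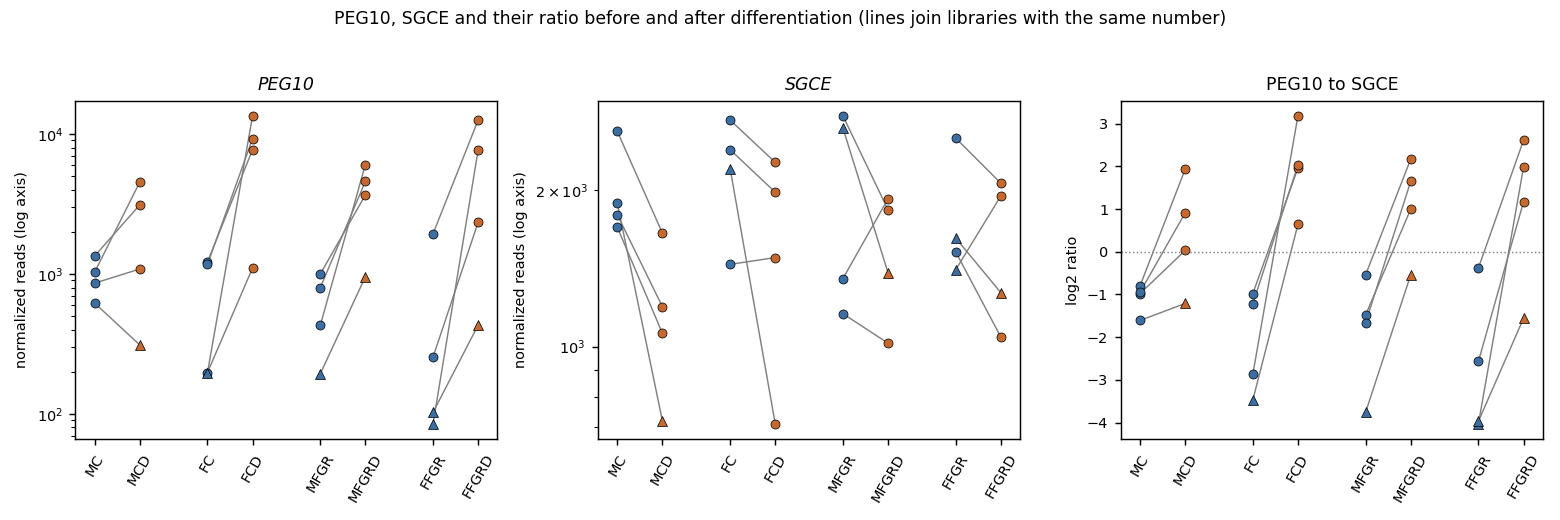
PEG10 and SGCE in normalized reads (log axes) and the log2 ratio of PEG10 to SGCE, before (blue) and after (orange) differentiation, with lines between libraries of the same background and number and triangles for the libraries that stood apart. PEG10 is higher after differentiation in 15 of 16 pairs and SGCE in 3 of 16. The pairs are by shared number only, and MC 2, FFGR 1 and FFGR 2 were not closest to their own number.

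At the level of single transcripts, 3863 of 19469 tested transcripts were called with stage, 19.8%. SGCE had 7 listed transcripts. SGCE-204, with 46.7% of all SGCE signal, fell by 0.62 (SE 0.19, limma adjusted p = 0.0155 over all transcripts) and was called. SGCE-207, with 36.5%, had a change of -1.41 (SE 0.79, adjusted p = 0.226) and was listed at 0 in MCD 2 and FCD 2 while every other library had at least 223. SGCE-201, with 14.7%, had a change of 0.10 (limma adjusted p = 0.874), and SGCE-202 was at 0 throughout. The split of reads among transcripts that share most of their sequence is an estimate, so single transcripts are less certain than the gene sum.

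PLAGL1, a zinc finger factor that slows the cell cycle and is known to regulate a network of imprinted genes, is ENSOARG00020012843 on chromosome 8 between 75015883 and 75045236. In MC it was 335, 485, 265 and 176, and in MCD 585, 411, 219 and 241. In FC it was 372, 157, 324 and 408, and in FCD 2176, 385, 391 and 310. The stages overlapped in both control backgrounds, and FCD 1 stood far above every other library. In MFGR it was 201, 284, 384 and 252, and in MFGRD 193, 366, 762 and 751. In FFGR it was 209, 117, 282 and 610, and in FFGRD 466, 432, 346 and 451. The FFGRD libraries were close together and all lay above 3 of the 4 FFGR libraries. The stage change was 0.64 (SE 0.27, limma adjusted p = 0.0699), short of the threshold. With the replicate block it was called at the same size (limma adjusted p = 0.0259). It was also called without MFGRD 1, FCD 4 or FFGR 4 (limma adjusted p = 0.0308, 0.0457 and 0.029). No other fit with a single library left out gave a call, and over all such fits the change ran from 0.48 to 0.74. Without the 7 libraries that stood apart it was 0.57 and was not called (limma adjusted p = 0.121). Of the genes next to PLAGL1, ZC2HC1B had a change of 0.63 (limma adjusted p = 0.342). STX11 had one of -1.32 (limma adjusted p = 0.0142) and was called.

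MEST is a membrane enzyme of the hydrolase family, expressed from the paternal copy. It is ENSOARG00020000738, on chromosome 4 between 103054720 and 103066684. Its level was 30.8 to 180 in preadipocytes with a median of 92.7, and 13.6 to 214 after differentiation with a median of 44.8. The stages overlapped over most of their ranges. The change was -0.70 (SE 0.37, limma adjusted p = 0.154), and 5 of 16 pairs were higher after differentiation, 4 of them outside FFGR. It passed without MCD 2, the library with the highest MCD value, at -0.90 (limma adjusted p = 0.0349). Without the 7 libraries that stood apart it was -0.74 and was not called (limma adjusted p = 0.166). COPG2, a coat protein gene 1073 bases from MEST, fell by 1.00 (SE 0.13, limma adjusted p = 6.98e-07). CEP41, the other neighbour of MEST, had a change of 0.03 (limma adjusted p = 0.949). Of the MEST signal, 95.5% was on MEST-201, and MEST-202 was above 0 in 5 libraries only.

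GRB10, an adaptor that restrains insulin and IGF receptor signalling, is ENSOARG00020008137 on chromosome 4 between 6336860 and 6510187. Its levels ran from 720 to 2108 in preadipocytes and from 717 to 2186 after differentiation, with medians of 1304 and 1535. The change was 0.18 (SE 0.16, 95% interval -0.14 to 0.50, limma adjusted p = 0.423). DDC, 19420 bases from GRB10, was low with a median of 10.7 and was called at a change of 1.03 (limma adjusted p = 0.0419). Among related adaptors and receptors fixed as a list, 3 of 6 tested were called with stage, against 27.2% of all genes, and with so few genes nothing is read from the count. INSR and IRS2, which carry the insulin signal, rose by 1.36 and 1.42 (limma adjusted p = 0.0251 and 0.00341), and the adaptor GRB14 fell by 2.22 (adjusted p = 0.00913).

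CDKN1C, the maternally expressed inhibitor of cyclin-dependent kinases, is ENSOARG00020021520 on chromosome 21 between 50569263 and 50571763. In MC it was 99.0, 20.2, 278 and 218, and in FC 28.8, 426, 130 and 368. In MFGR it was 1011, 682, 7.38 and 233, and in FFGR 53.1, 299, 1483 and 275. Its spread was wide inside every preadipocyte group, and the libraries that stood apart, MFGR 1, FC 2, FFGR 2 and FFGR 3, held the highest or second highest value of their group. After differentiation the range was 41.1 to 477. The stage change was -0.51 (SE 0.57, 95% interval -1.67 to 0.65, limma adjusted p = 0.545). None of the 6 tested CDK inhibitors was called with stage by limma, and 2 of them, CDKN1A and CDKN2C, had an unadjusted p below 0.05. CDKN1A had a change of -0.78 and CDKN2C one of 0.58, and CDKN2C was under the fold threshold at a limma adjusted p of 0.0472. The members of that list were picked with results in view and support no direction.

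NDN, a MAGE family protein that is paternally expressed and associated with growth arrest in neurons, is ENSOARG00020008021 on chromosome 18 between 521013 and 521990. It ran from 89.1 to 432 in preadipocytes and from 172 to 579 after differentiation, with medians of 205 and 263. It was higher after differentiation in 13 of 16 pairs, 11 of them outside FFGR. The change of 0.34 (SE 0.20, limma adjusted p = 0.218) was not called. MAGEL2, the related gene 41343 bases away, had a change of -0.77 (limma adjusted p = 0.103). SNRPN, the other neighbour of NDN, had a change of -0.01 (limma adjusted p = 0.977).

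The second question was whether growth restriction moved these genes. No member was called in preadipocytes or in differentiated cells, and no member had an unadjusted p below 0.05 in either. Across all genes limma called 0% in preadipocytes and 0% in differentiated cells, with 344 and 136 genes at an unadjusted p below 0.05. The comparisons were between 8 growth-restricted and 8 control libraries, with the sexes averaged.

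**Figure D3:**
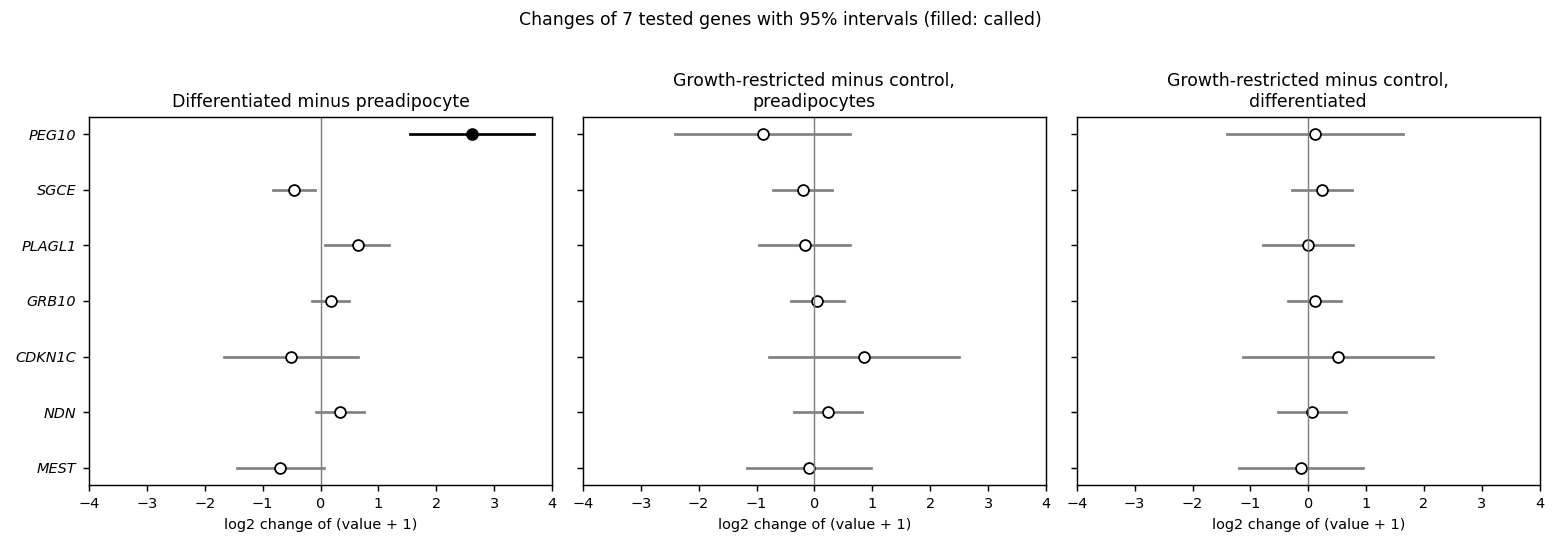
Log2 changes of value + 1 for the 7 tested genes with 95% intervals, for stage and for growth restriction in preadipocytes and in differentiated cells (filled, called; open, not called). The PEG10 stage interval, 1.55 to 3.69, lies above 0, and all 14 growth restriction intervals include 0.

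In preadipocytes the largest estimates were those of PEG10 and CDKN1C. PEG10 was 197 to 1343 with a median of 945 in controls, and 85.0 to 1935 with a median of 342 in growth-restricted cells. The groups overlapped, with 2 FC libraries at 197 and FFGR 4 highest of all. The change was -0.89 (SE 0.74, 95% interval -2.41 to 0.62, limma adjusted p = 0.84). CDKN1C was 20.2 to 426 in controls and 7.38 to 1483 in growth-restricted cells, and the change was 0.85 (SE 0.80, 95% interval -0.79 to 2.49, limma adjusted p = 0.84). Of the 8 growth-restricted libraries, 3 were above all controls and 1 was below all of them. MFGR 1 and FFGR 3 among the high ones stood apart in the tree, as did FFGR 2 and, of the controls, FC 2 only. Without the 7 libraries that stood apart, the CDKN1C estimate was 0.08 and that of PEG10 was -0.15.

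The other estimates in preadipocytes were 0.23 for NDN, -0.20 for SGCE, -0.17 for PLAGL1, -0.09 for MEST and 0.05 for GRB10. Their intervals still allowed sizeable changes. That of GRB10, the narrowest, ran from -0.40 to 0.51, and that of MEST, the widest of these, from -1.16 to 0.97.

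After differentiation the estimates were 0.52 for CDKN1C (95% interval -1.12 to 2.16), 0.24 for SGCE (-0.28 to 0.75), -0.12 for MEST (-1.19 to 0.95) and 0.11 for PEG10 (-1.40 to 1.63). Those of GRB10, NDN and PLAGL1 were 0.11, 0.07 and -0.00, and the limma adjusted p was 1 for all 7. Without the 7 libraries that stood apart the estimates were 0.05 for CDKN1C, -0.72 for MEST and 0.50 for PEG10, and with the highest transcript that of MEST was -0.90. GRB10 varied less in growth-restricted differentiated libraries, from 1393 to 1741, than in controls, from 717 to 2186. The difference in spread was not tested.

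GRB10 had 3 listed transcripts, whose growth restriction estimates differed in sign, and none was called. GRB10-201 was 1146, 665, 814 and 964 in MC and 589, 1254, 722 and 518 in FC. It was 301, 1118, 595 and 499 in MFGR and 187, 567, 924 and 400 in FFGR. Of the 8 growth-restricted values 4 were below all controls, and the ranges overlapped. The GRB10-201 change was -0.67 (SE 0.31, unadjusted p = 0.0394, limma adjusted p = 0.92 over all transcripts). That of GRB10-203 was 0.92 (SE 1.02), and that of GRB10-202 was 2.07 (SE 1.40). After differentiation GRB10-201 had a change of -0.57 (adjusted p = 1) and GRB10-203 one of 2.76 (SE 1.02, unadjusted p = 0.0121, limma adjusted p = 1). That of GRB10-202 was 1.68 (SE 1.40). GRB10-203 was listed at 0 in MCD 2 and MCD 3 and was 71.5 in FCD 2, whereas the other differentiated libraries had at least 310. The division of reads among these transcripts is an estimate, and a change in their use cannot be told apart from it. No transcript of a member was called by limma with growth restriction, and neither was any other transcript (0% at both stages, with 599 and 423 of 19469 at an unadjusted p below 0.05).

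**Figure D4:**
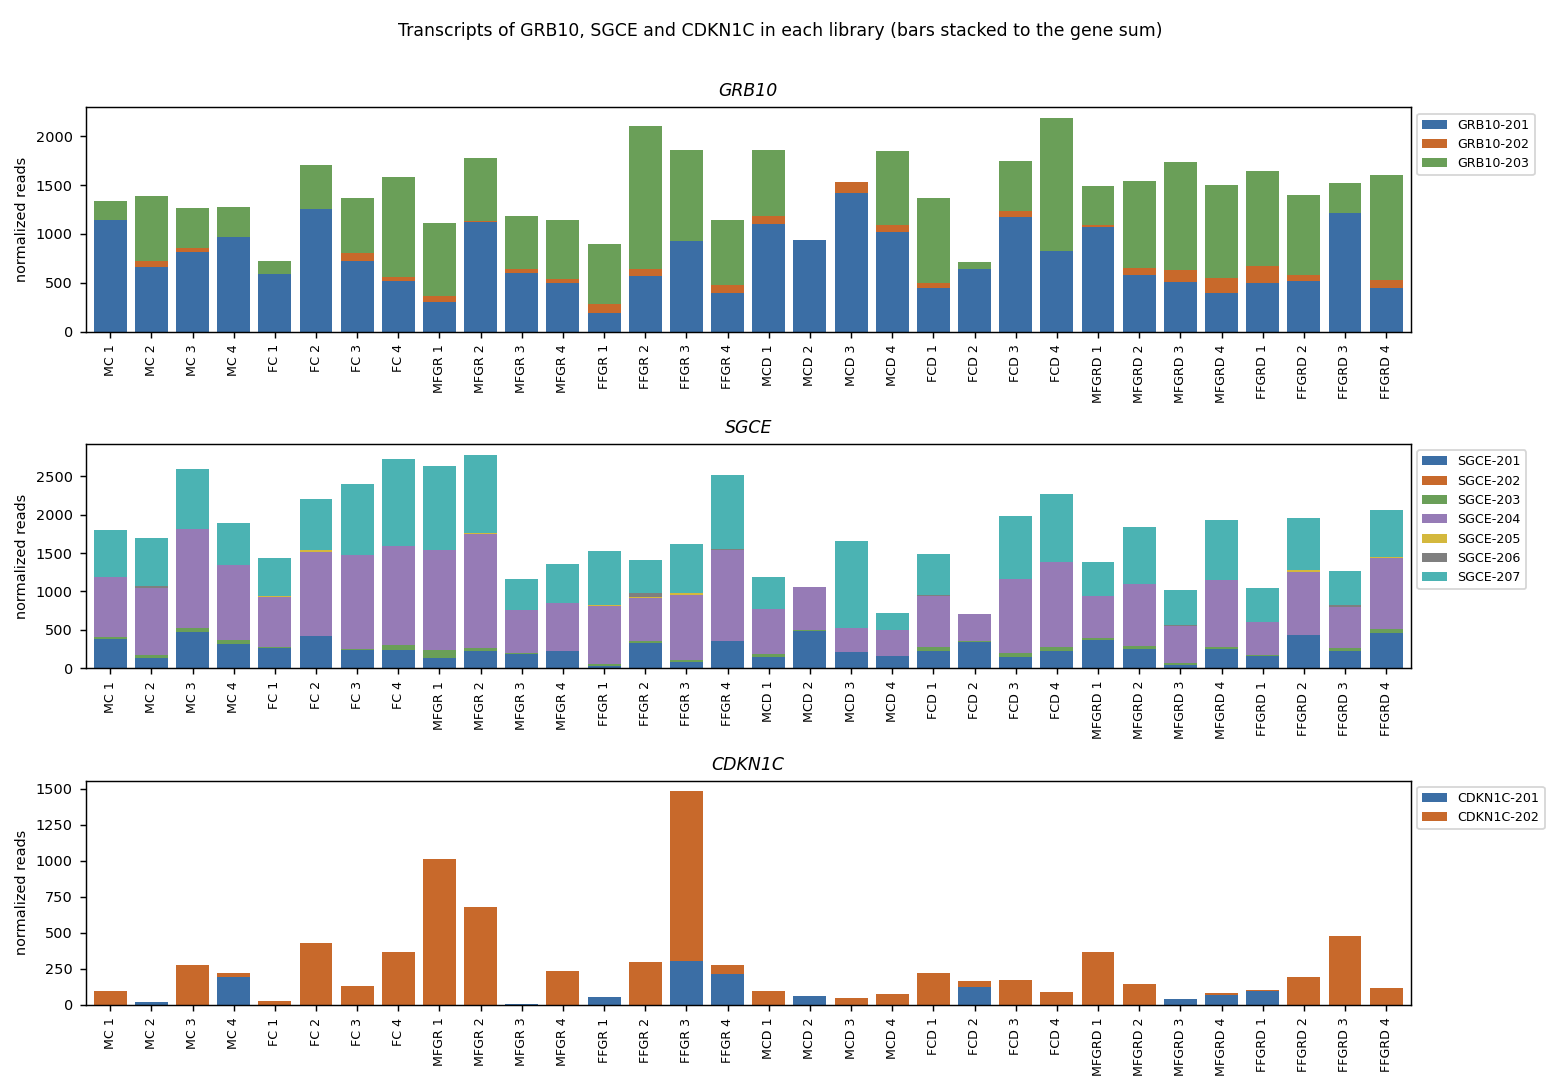
Normalized reads of each listed transcript of GRB10, SGCE and CDKN1C in the 32 libraries, stacked to the gene sum (linear axes from 0). GRB10-203 is missing from MCD 2 and MCD 3, SGCE-207 from MCD 2 and FCD 2, and most CDKN1C libraries hold nearly all signal on 1 of the 2 transcripts.

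The CDKN1C signal was also divided unevenly between its transcripts. CDKN1C-201 was above 0 in 11 libraries and CDKN1C-202 in 27. CDKN1C-202 was listed at 0 in MC 2, MFGR 3, FFGR 1, MCD 2 and MFGRD 3, and all signal was on CDKN1C-201 there. These 2 transcripts cover almost the same bases, and the division of reads between them by the authors' estimation and a change in their use cannot be told apart.

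The sexes were compared at each stage, as males minus females. No member was called by limma, none had an unadjusted p below 0.05, and all genes gave 0% in preadipocytes and 0% in differentiated cells, with 550 and 159 genes at an unadjusted p below 0.05. PEG10 had the largest estimates, 0.95 in preadipocytes (SE 0.74, limma adjusted p = 0.846) and -0.98 after differentiation (SE 0.74, limma adjusted p = 1). The preadipocyte estimate was 0.25 without the 7 libraries that stood apart and 0.38 with the span slope as a covariate. Whether growth restriction acted differently in the sexes was also tested. No member was called, against 0% of genes and 333 at an unadjusted p below 0.05, and the PEG10 difference was 1.00 (SE 1.04, limma adjusted p = 0.998).

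Differentiated cultures differed widely in ADIPOQ, a hormone of mature fat cells that ran from 8.59 to 13421 over those 16 libraries. The members were therefore set against log2(ADIPOQ + 1) with the 4 groups in the model. No member was called by limma, against 1.99% of the 12068 genes tested. PEG10 had a slope of -0.34 on the log2 scale for each doubling of ADIPOQ + 1 (SE 0.14), at an unadjusted p of 0.0338 and a limma adjusted p of 0.341, which did not pass. The slope was -0.18 without the 7 libraries that stood apart and -0.12 with the span slope as a covariate (limma adjusted p = 0.888 and 0.635). The slopes of the other 6 members lay between -0.09 and 0.16.

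The levels of 4 members also moved with the span slope of the library. In a model with the 8 groups, limma called PEG10, PLAGL1, NDN and CDKN1C, 4 of 7, against 69.5% of all genes, so the share was not above the background. The span slope was itself computed from all transcripts of the same libraries. PEG10 rose by 2.60 for each unit of span slope (SE 0.34, limma adjusted p = 9.97e-08) and PLAGL1 by 0.93 (SE 0.25, adjusted p = 0.00175). NDN fell by 0.84 (SE 0.16, limma adjusted p = 4.37e-05) and CDKN1C fell by 1.66 (SE 0.57, adjusted p = 0.0121). Without the 7 libraries that stood apart, PEG10 and GRB10 were called (3.35 and 1.18, limma adjusted p = 0.00519 and 0.00981). NDN, PLAGL1 and CDKN1C were not, with slopes of -0.08, 1.21 and -0.66 (adjusted p = 0.897, 0.175 and 0.772). With the highest transcript in place of the gene sum, CDKN1C lost its call (-2.43, limma adjusted p = 0.0771) and GRB10 gained one.

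**Figure D5:**
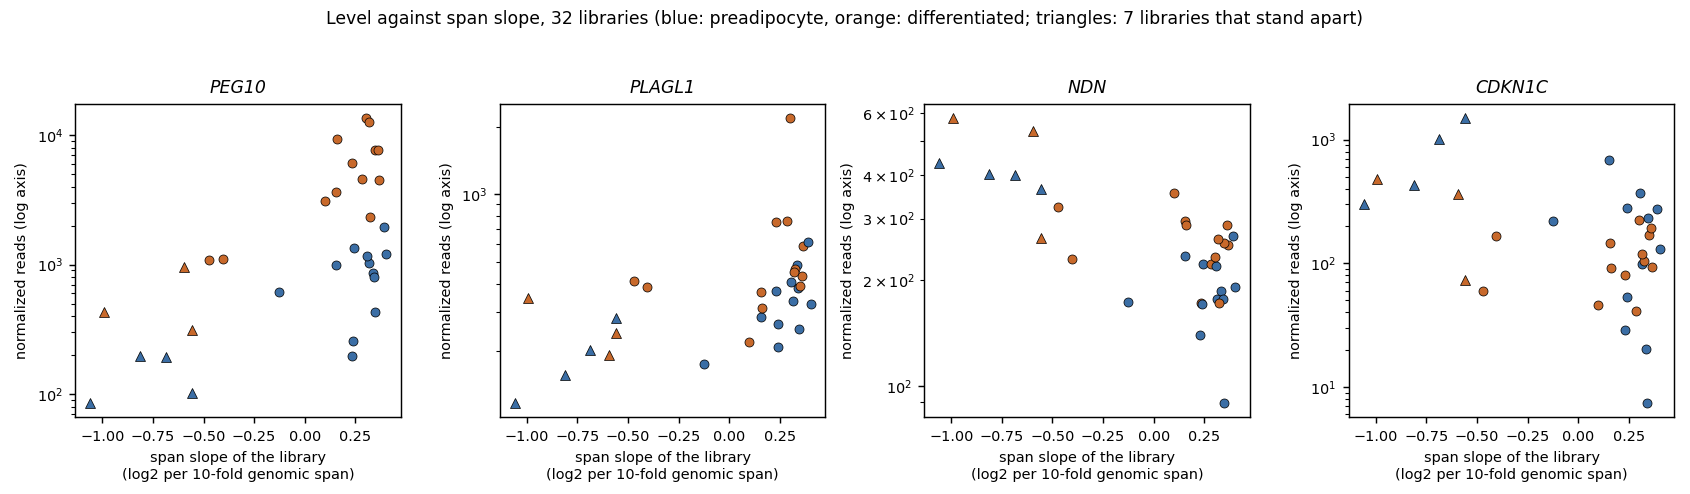
Normalized reads (log axes) of PEG10, PLAGL1, NDN and CDKN1C against the span slope of each of the 32 libraries, in log2 units for each 10-fold of genomic span (blue, preadipocytes; orange, differentiated; triangles, the 7 libraries that stood apart). PEG10 is 85.0 and NDN 432 in FFGR 2, the library with the most negative slope.

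PEG10 was at the low end in the libraries that stood apart at both stages, and NDN was higher in them in preadipocytes. PEG10 was 85.0 to 197 in the 4 such preadipocyte libraries and 197 to 1935 in the other 12. It was 311 to 954 in the 3 differentiated ones and 1084 to 13449 in the other 13. NDN was 364 to 432 against 89.1 to 267 in preadipocytes, and 265 to 579 against 172 to 355 after differentiation, where MCD 4 lay among the other libraries. With the span slope as a covariate the PEG10 stage change was 2.64 (limma adjusted p = 4.04e-08).

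Members also varied together inside the groups. Spearman's rho of the residuals from the group means, over 32 libraries, was 0.61 for NDN and CDKN1C, 0.60 for SGCE and PEG10 and 0.51 for PLAGL1 and PEG10, and -0.49 for NDN and PLAGL1. These are descriptions of points that share library, depth and span slope. By the same measure the gene most like PEG10 was MRC2 with a rho of 0.89, and the one most like NDN was TMED9 with 0.88. SGCE was most like PDGFD and CDKN1C most like SAT2, each with 0.83, PLAGL1 most like USP27X with 0.78, GRB10 most like TIGD5 with 0.75 and MEST most like LRRN2 with 0.70.

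Other imprinted genes were read from a list of 43. The table named 28, and 18 were tested. With stage, 2 rose and 3 fell, so 5 of 18 were called, a share close to the 27.2% of all genes. The median change was -0.04 against 0.03 for all genes. IGF2, the main fetal growth factor of the family, was 0 to 81.8 in preadipocytes with a median of 3.25, and 26.2 to 2343 after differentiation with a median of 551. The stages overlapped only between the 2 highest preadipocyte and the 2 lowest differentiated libraries. The change was 6.72 (SE 0.66, limma adjusted p = 9.66e-09) on the log2(value + 1) scale, and 5 preadipocyte libraries were listed at 0. IGF2R, which clears IGF2, had a change of 0.40 (limma adjusted p = 0.572), and H19 was not named. BLCAP, the host gene in whose intron NNAT lies in other mammals, rose by 0.96 (SE 0.24, limma adjusted p = 0.00309). Besides COPG2, GNAS, the stimulatory G protein alpha subunit, fell by 0.78 (limma adjusted p = 0.0063) and TFPI2, a protease inhibitor, fell by 0.68 (adjusted p = 0.0292). None of the 18 was called by limma with growth restriction at either stage, and TFPI2 was the only one with an unadjusted p below 0.05 there. Its change was -0.73 in differentiated cells (SE 0.34, unadjusted p = 0.0417, limma adjusted p = 1).

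Genes around DLK1 in the Notch pathway were also counted. Of 15 named, 14 were tested and 4 were called with stage, all of them up, a share close to the 27.2% of all genes. The ligand JAG1 was 23.6 to 500 in preadipocytes and 75.0 to 2281 after differentiation, and rose by 1.91 (SE 0.45, limma adjusted p = 0.00158). The Notch target HES1 rose by 1.17 (SE 0.33, limma adjusted p = 0.00688). The targets HEY1 and HEYL were low, with HEY1 at 0 in 12 of 16 preadipocyte libraries and at most 49.0 after differentiation, and rose by 3.38 and 1.84 (limma adjusted p = 1.45e-06 and 0.00226). The receptors NOTCH1 to NOTCH4 had changes of -0.65, -0.84, -0.48 and -0.12, and none was called.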

How the data were processed

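Perirenal preadipocytes and differentiated cells from fetal sheep were profiled by RNA-seq in 32 libraries, 8 groups of 4. The deposited values are a signal in normalized reads, which the authors made by estimating transcripts with Salmon on the Ensembl annotation of Oar_rambouillet_v1.0, after FastQC (0.11.9 per the labels) and removal of low-quality reads, and dividing by DESeq2 normalization factors. They are not whole reads, so a count model was not used. The deposited table also holds group means and the authors' own fold changes and p-values for their comparisons, which were not used. The value of 1 read was taken from the spacing of low values of genes with 1 transcript (0.695 to 1.8 by library). Within 0.1 read, 70.5 to 96.2% of such values were whole, and a value of 10 stood for 5.56 to 14.4 reads.

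Transcript values were summed by gene. Tests were made in R 4.3.3 with limma 3.58.1 (trend) on log2(value + 1) in 1 model of 8 groups, with genes at 10 or more in at least 4 libraries, and were tested on simulated data first. Fold changes on this scale understate the change of low genes. Genes were called at an adjusted p below 0.05 and a fold above 1.5 and, in the associations with ADIPOQ and span slope, at an adjusted p below 0.05. Span slope is the slope of a library's centred log2 values on the log10 genomic span of the transcripts. Alternatives were 2 pseudocounts, quantile normalization, 2 filters, a replicate block, separate fits, the highest transcript, library weights, span slope as a covariate and leaving out each library. The fit without 7 libraries, the stage by sex test and the span slope association were chosen after seeing the data.

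Replicate numbers are shared by the stages. Deviations of same-numbered libraries correlated at 0.16 to 0.61 in MC, 0.30 to 0.51 in FC and 0.39 to 0.67 in MFGR, and at -0.40 for FFGR 2. The same-numbered library was the closest match throughout FC and MFGR, but not for MC 2, FFGR 1 or FFGR 2. The pair counts and the replicate block therefore rest on shared numbers, which the labels do not tie to a fetus. No libraries held identical values. All named members are reported, with genes of the fixed lists that were called (up to 5 a list and comparison) plus IGF2, H19, IGF2R and MEG3, and the gene most like each member. The members and lists were chosen with earlier results of these data known. Genes adjacent to members, list members below the threshold, and the other markers were named after their values were seen.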

Additional observations from a re-analysis of the deposited data

Results flagged for a closer look

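In 2 of 56 combinations of a tested member and a group of 4 libraries, 1 library lay far from the others on the log2(value + 1) scale. The rule was Dixon's criterion, which flags about 1 in 20 groups by chance. PLAGL1 was 2176 in FCD 1, against 310 to 391 in the other FCD libraries. The gap was 0.881 of the range of the group on the log2(value + 1) scale. GRB10 was 1782 in MFGR 2, against 1112 to 1179 in the other MFGR libraries, with a gap of 0.876 of the range on that scale. Neither library was among the 7 that stood apart.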

How the results depend on the processing

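The PEG10 stage change held its direction and its call under all 42 alternatives, at 2.45 to 2.86 with single libraries left out and 2.58 to 2.72 otherwise. The number of members called with stage was 2 with the replicate block (PLAGL1 added), the highest transcript (SGCE), library weights (MEST, limma adjusted p = 0.0289) and the span slope covariate (PLAGL1, 0.0144), and 1 to 2 with single libraries left out. Within FC it was 1 under quantile normalization, the replicate block, library weights, the span slope covariate and without the 7 libraries, and 0 to 1 with single libraries left out. Within MFGR it was 1 under the replicate block, library weights and the span slope covariate. Within FFGR it was 0 in a fit of its own libraries and without the 7 libraries (PEG10 limma adjusted p = 0.072), and 0 to 1 with single libraries left out. Members called with span slope were 2 without the 7 libraries (PEG10 and GRB10). With the highest transcript they were 4, with GRB10 in place of CDKN1C. The replicate block changed no other call.

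Small growth restriction estimates changed sign, and none passed in any setting; the cause was not tested. In preadipocytes NDN was -0.02 without the 7 libraries. GRB10 was -0.67 with the highest transcript, -0.05 with library weights and -0.09 without the 7 libraries. PLAGL1 was 0.04 with the span slope covariate. In differentiated cells NDN was -0.13 and -0.27 and PLAGL1 0.15 and 0.17 with library weights and without the 7 libraries. GRB10 was -0.57 with the highest transcript and -0.05 with library weights. With single libraries left out, the preadipocyte ranges were -0.24 to 0.18 for MEST, -0.08 to 0.16 for GRB10 and -0.37 to 0.02 for PLAGL1. The differentiated ranges were -0.45 to 0.29 for MEST, -0.09 to 0.20 for NDN, -0.05 to 0.22 for GRB10, -0.15 to 0.32 for PLAGL1 and -0.28 to 0.59 for PEG10. DLK1 was not detected beyond 1 or 2 reads a library, and the reason was not tested.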
